A study of Mus musculus with 6 samples.

Results

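The Notch pathway was examined in the postnatal brain of mice in which a human SRY transgene had been activated, through 10 of its genes: the receptors Notch1 and Notch2, the ligands Dll1, Dll3 and Jag1, the DNA-binding mediator Rbpj, and Hes1, Hes5, Hes6 and Hey1, which encode repressors of the Hes and Hey family. Every probe that the deposited brain table lists under one of these symbols was taken, which gave 16 probes. The 10 genes were a small part of the 18138 symbols in the table. Whole brain from male FVB mice at postnatal day 6 had been hybridized to Illumina MouseRef-8 v2.0 bead arrays, with 3 arrays from hSRY-OFF and 3 from hSRY-ON mice. By the study's definition of hSRY-OFF, both genotypes carried a single copy of the Signalox-hSRY transgene at the H11 locus. It was driven by the ubiquitous CAG promoter, in one transgenic line. The study also speaks of control pups in this comparison, a name it gives to littermates without the transgene. The litters and mothers of these pups were not given. In hSRY-OFF mice a loxP-flanked DsRed2 cassette still blocked expression of the FLAG-tagged human SRY and its EGFP reporter. In hSRY-ON mice the cassette had been removed in the single-cell embryo by Cre protein carried over from an oocyte that expressed Ddx4-Cre, and the pups chosen did not inherit the Cre transgene. Human SRY had no symbol of its own in the table. The only probe for mouse Sry was below background on all 6 arrays, with detection p-values from 0.411 to 0.991, so neither gave a check of the labels.

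Notch signaling passes between touching cells. A Delta or Jagged ligand on one cell binds a Notch receptor on its neighbour, the receptor is cut by ADAM and gamma-secretase proteases, and its freed intracellular domain joins Rbpj on DNA to turn on Hes and Hey genes. In the developing brain their products repress proneural genes and so keep neural progenitors and radial glia undifferentiated, and Notch also takes part in the formation of astrocytes and in the sprouting of blood vessels.

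The TGGGAA core that Rbpj recognises was searched for on both strands in the 250 bases before each annotated start, in RefSeq sequence of build GRCm38.p6. Entries were at hand for 8 of the 10 genes, with 11 starts between them. Hes1 and Hey1 were not searched. Hes5, a classical target of Notch, held 2 matches, at positions -226 and -82 counted from its start. Rbpj held 2 matches before one start and 1 before the other, but these windows overlap and the last match is one of the first pair. The other 6 genes held none. Over all 32851 promoter windows, 21.6% had at least 1 match and 2.77% had 2 or more. The CACNAG sequence bound by Hes repressors was found before 1 start each of Notch1, Notch2 and Hes6, against 36.7% of all windows. A match is only a run of letters and was not tested for binding. The windows of Hes5 and of its relative Hes6 are given because Hes5 had the lowest p-value among the 10 genes and Hes6 the most probes tested. Capitals mark TGGGAA or its reverse complement.
Hes5, chr4:154960673-154960922, plus strand: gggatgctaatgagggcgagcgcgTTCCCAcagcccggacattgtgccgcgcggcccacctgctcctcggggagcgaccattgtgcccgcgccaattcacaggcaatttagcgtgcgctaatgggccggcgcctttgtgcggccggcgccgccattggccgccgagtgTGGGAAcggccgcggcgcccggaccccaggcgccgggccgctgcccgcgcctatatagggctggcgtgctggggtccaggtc
Hes6, chr1:91413223-91413472, minus strand: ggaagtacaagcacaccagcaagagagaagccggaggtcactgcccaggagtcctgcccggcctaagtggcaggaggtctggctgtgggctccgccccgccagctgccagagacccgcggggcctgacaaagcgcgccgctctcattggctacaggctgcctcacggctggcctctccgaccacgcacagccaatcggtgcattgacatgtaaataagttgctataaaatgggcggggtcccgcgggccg
Hes6, other start, chr1:91414039-91414288, minus strand: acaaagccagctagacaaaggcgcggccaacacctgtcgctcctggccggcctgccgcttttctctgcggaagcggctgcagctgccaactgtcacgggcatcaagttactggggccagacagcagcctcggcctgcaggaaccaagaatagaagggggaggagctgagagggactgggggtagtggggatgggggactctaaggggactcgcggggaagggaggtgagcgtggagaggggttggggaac

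Of the 16 probes, 9 were detected on all 6 arrays, at a detection p-value under 0.05 and also under 0.01. They covered Notch1, Dll1, Hes1, Hes5, Hes6 and Hey1. The other 7 probes were detected on 0 arrays and were the only probes of Notch2, Dll3, Jag1 and Rbpj. Notch2, a receptor of progenitors and glia, gave signals from 153 to 174 intensity units at its 2 probes, with detection p-values from 0.207 to 0.921. Dll3, a divergent ligand that acts inside the cell that makes it, gave 151 to 184, with detection p-values from 0.107 to 0.848. Jag1, a ligand of the Jagged class, gave 154 to 174. Rbpj gave 150 to 186 at its 3 probes, with a lowest detection p-value of 0.0977. The lowest signal that counted as detected ranged from 184 to 203 over the 6 arrays. No fold change was computed for these 4 genes. A signal below background is not absence of the transcript: the probes of Snap25 and Nefl, which neurons express strongly, were also undetected on all 6 arrays.

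**Figure D1:**
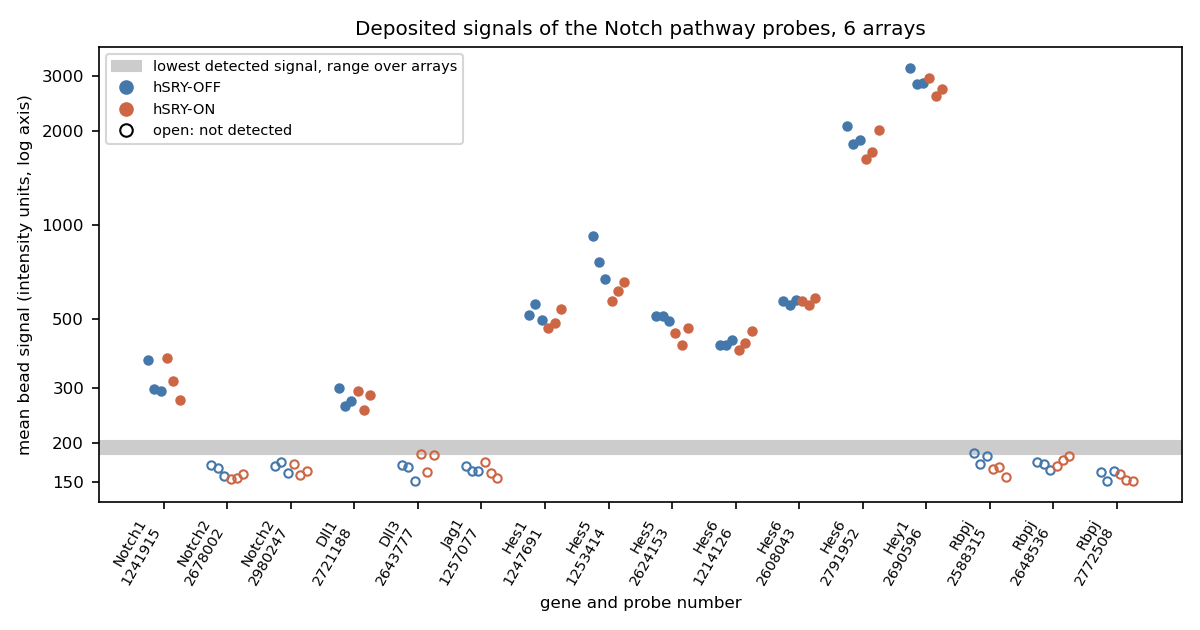
Deposited mean bead signal (intensity units, log axis) of each of the 16 probes on each array, hSRY-OFF in blue and hSRY-ON in red, with open circles for probes not detected. The 9 filled sets lie above the grey band, which runs from 184 to 203 and marks the lowest detected signal of the 6 arrays, and levels of different probes are not comparable.

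Across the array, 14215 probes of 10548 symbols passed the filter on dim probes and were tested with limma, and 308 of them (2.17%) were called at an adjusted p under 0.05, 120 higher and 188 lower in hSRY-ON. That count was 0 or 1 when any single array other than hSRY-ON array 3 was left out (2236 to 2690 probes at an unadjusted p under 0.05 in limma), and 417 without hSRY-ON array 3, so at most 1 call, the marker genes given later included, was made in each of the former. None of the 9 Notch pathway probes was called, and the lowest adjusted p among them in the limma fit was 0.168. At an unadjusted p under 0.05 the count was 1 of 9, a Hes5 probe, against 20.9% of all tested probes. The same Hes5 probe was the only one whose groups did not overlap, against 27.7% of all tested probes. Of the 9, 5 were lower and 4 higher in hSRY-ON. Their median log2 fold change was -0.03, beside a median of 0.00 over all tested probes, and it ran from -0.05 to 0.05 over the alternatives, with a positive sign in those without hSRY-OFF array 2 (0.03) and without hSRY-ON array 1 (0.05). The median size of the log2 fold change was 0.09 for the 9 probes and 0.14 for all tested probes, with median standard errors of 0.12 and 0.11. In whole brain, fewer cells of a type and less RNA per cell cannot be told apart.

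**Figure D2:**
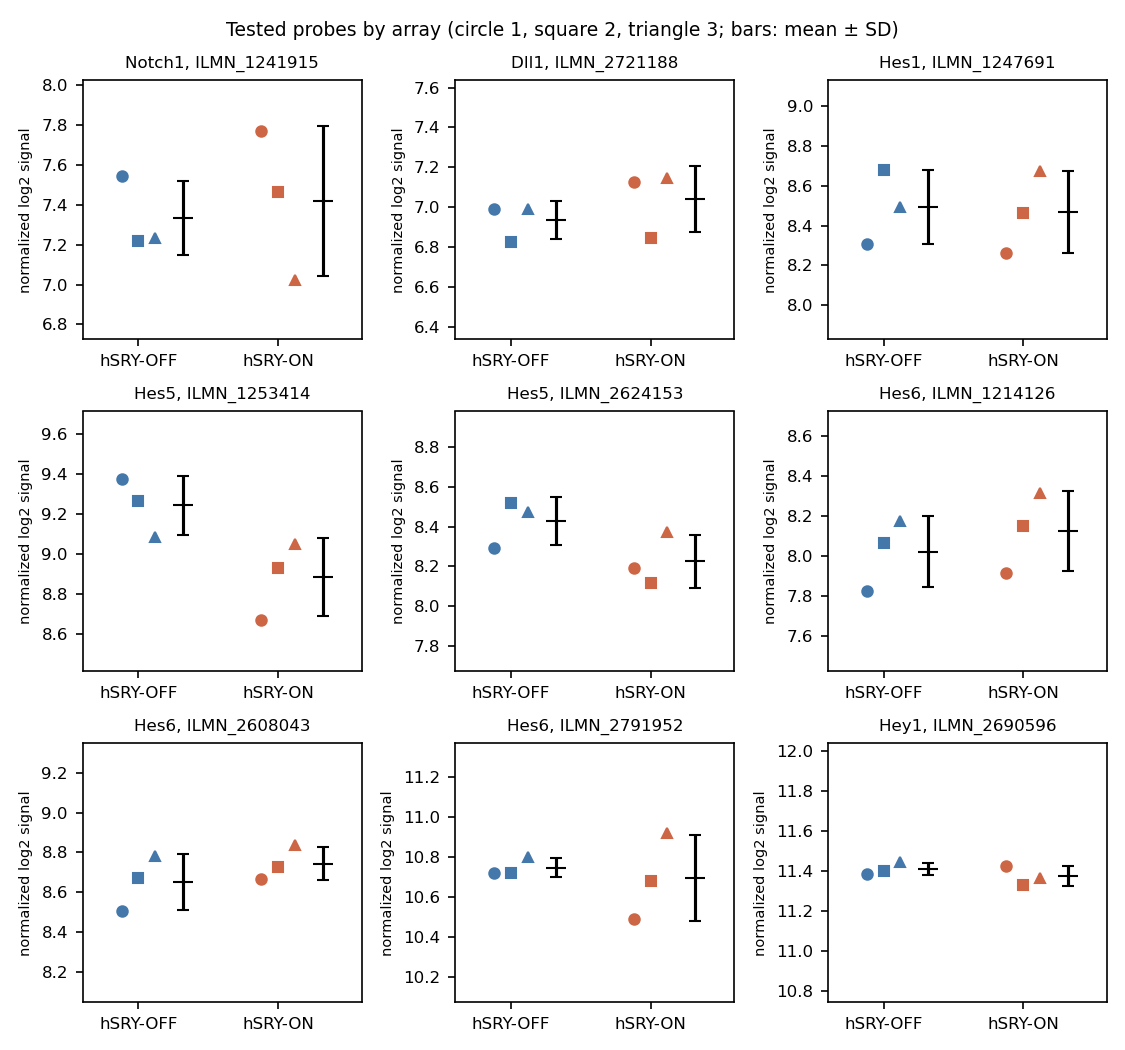
Normalized log2 signal of the 9 tested probes on each array, with hSRY-OFF in blue, hSRY-ON in red, marker shapes for arrays 1 to 3 and bars for the mean ± SD (n = 3). All panels span the same log2 range, and only the Hes5 probe ILMN_1253414 has groups that do not overlap.

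Notch1 is the main Notch receptor of neural progenitors. Its probe ILMN_1241915 had normalized log2 signals of 7.55, 7.22 and 7.23 in hSRY-OFF and 7.77, 7.46 and 7.02 in hSRY-ON (arrays 1 to 3 of each, in this order throughout). The hSRY-ON arrays held both the highest and the lowest value, and the groups overlapped. The difference was 0.09 on the log2 scale, with a standard error of 0.19 and a 95% interval from -0.37 to 0.54, which corresponds to a fold between 0.772 and 1.46 (limma adjusted p = 0.844). Without hSRY-ON array 1 it was -0.09. This was the widest interval among the 9 probes.

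Dll1 is the Delta ligand of differentiating progenitors and newborn neurons. The Dll1 probe ILMN_2721188 read 6.99, 6.82 and 6.99 in hSRY-OFF and 7.13, 6.85 and 7.14 in hSRY-ON. The groups overlapped through array 2, which was the lowest of each group. The log2 fold change was 0.10 ± 0.11 (SE, n = 3 per group), with a 95% interval from -0.15 to 0.36 (limma adjusted p = 0.631). It was 0.0487 without hSRY-OFF array 2 and 0.199 without hSRY-ON array 2.

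Hes1 is a repressor that oscillates in progenitors and is switched on by Notch. Its signal at ILMN_1247691 was 8.31, 8.68 and 8.49 in hSRY-OFF and 8.26, 8.46 and 8.67 in hSRY-ON. The groups lay over each other almost entirely. The log2 fold change was -0.03 ± 0.14 (SE), with a 95% interval from -0.35 to 0.30 (limma adjusted p = 0.940), and its sign was positive in 2 of 16 alternatives, each of which left out 1 array.

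Hes5, the repressor whose transcription in neural progenitors follows Notch activity closely, was measured by 2 probes. The deposited signals of ILMN_1253414 were 917, 757 and 670 intensity units in hSRY-OFF mice and 570, 614 and 656 in hSRY-ON mice. After normalization they were 9.38, 9.27 and 9.09 against 8.67, 8.93 and 9.05 on the log2 scale. Every hSRY-ON value lay below every hSRY-OFF value, and array 3 of each genotype (9.05 and 9.09) came closest to the other group. The log2 fold change was -0.36 ± 0.13 (SE, n = 3 per group), a fold of 0.779 with a 95% interval from 0.634 to 0.958, and the probe was not called (limma adjusted p = 0.168). Of all tested probes, 86.6% had a smaller log2 fold change in size.

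ILMN_2624153, the other Hes5 probe, gave deposited signals of 511, 510 and 490 in hSRY-OFF and 450, 411 and 468 in hSRY-ON. Normalized, these were 8.29, 8.52 and 8.47 against 8.19, 8.12 and 8.37. The deposited signals of the groups did not overlap, but the normalized values did, since hSRY-ON array 3 was above hSRY-OFF array 1. The log2 fold change was -0.20 ± 0.10 (SE), with a 95% interval from -0.45 to 0.04 (limma adjusted p = 0.315). Both probes were lower in hSRY-ON in the reported fit and in each alternative that included them, and their values over the 6 arrays had a Pearson r of 0.570, given as a description. ILMN_1253414 passed the threshold in 2 of 16 alternatives, at -0.28 without background correction (limma adjusted p = 0.0475) and at -0.36 with a trended and robust prior (limma adjusted p = 0.0445). Leaving out 1 array at a time gave adjusted p from 0.121 to 0.343 for it. The 2 probes read the same 6 RNA samples and are not independent replicates.

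**Figure D3:**
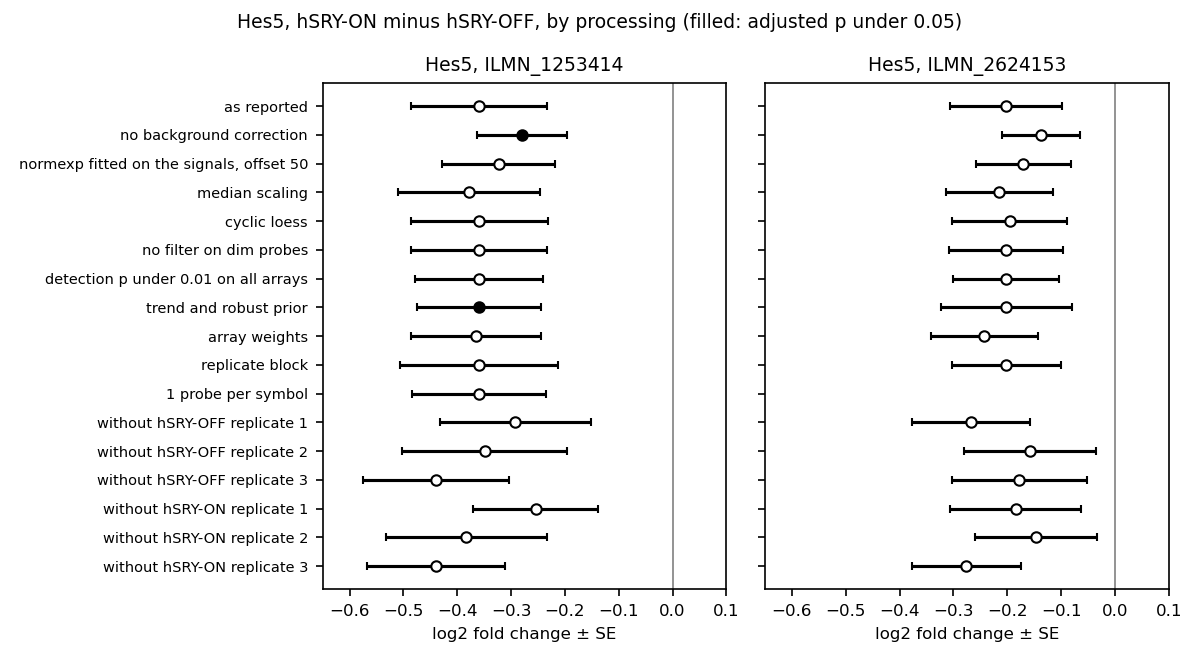
Log2 fold change (hSRY-ON minus hSRY-OFF, ± SE) of the 2 Hes5 probes in the reported fit and under each alternative, filled where the adjusted p was under 0.05. All values lie below 0, from -0.44 to -0.25 for ILMN_1253414 and from -0.28 to -0.14 for ILMN_2624153, and 2 points are filled.

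Hes6 is a relative that is induced by proneural factors and opposes Hes1, so it marks cells that leave the progenitor state. It had 3 probes. ILMN_1214126 read 7.82, 8.06 and 8.17 in hSRY-OFF and 7.91, 8.15 and 8.31 in hSRY-ON, a difference of 0.11 ± 0.14 (SE). ILMN_2608043 read 8.50, 8.67 and 8.78 against 8.67, 8.73 and 8.84, a difference of 0.09 ± 0.10 (SE). ILMN_2791952 read 10.72, 10.72 and 10.80 against 10.49, 10.68 and 10.92, a difference of -0.05 ± 0.12 (SE). All 3 probes had overlapping groups, and limma adjusted p ran from 0.645 to 0.853. The first pair followed each other over the 6 arrays (r = 0.941, a description), while ILMN_2791952 followed them less closely (0.709 and 0.494) and differed from them in sign. With each array left out in turn, ILMN_1214126 ran from 0.00642 (without hSRY-OFF array 1) to 0.212 (without hSRY-ON array 1) and ILMN_2608043 from 0.0179 to 0.155. Without hSRY-ON array 1, the value of ILMN_2791952 was 0.05.

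Hey1 is a repressor known from Notch in blood vessels as well as in neural progenitors. ILMN_2690596 read 11.38, 11.40 and 11.44 in hSRY-OFF and 11.43, 11.33 and 11.36 in hSRY-ON. The groups overlapped. The log2 fold change was -0.04 ± 0.07 (SE), and its 95% interval from -0.21 to 0.14, a fold between 0.864 and 1.10, was the narrowest of the 9 (limma adjusted p = 0.826).

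The hSRY-ON arrays varied more among themselves than the hSRY-OFF arrays at 8 of the 9 probes, beside 59.1% of all tested probes. Array 3 was the highest of the hSRY-ON group at 7 of the 9 probes, and array 1 was the lowest at 5, which were Hes1, the Hes5 probe ILMN_1253414 and all 3 Hes6 probes. Over all tested probes, hSRY-ON array 3 stood apart on the second principal component (18.5% of the variance, a score of -22.2 against 0.05 to 8.92 for the other 5 arrays), while the first component (42.8%) separated the genotypes. Without hSRY-ON array 3 the 2 Hes5 probes were at -0.44 and -0.28, and neither was called. For likeness over the 6 arrays, the probes closest to Hes5 ILMN_1253414 were those of Alg3, Egfl8 and Agps, with Pearson r from 0.994 to 0.995, and 336 tested probes reached at least 0.9. The closest to Dll1 were Magee1, Ehbp1 and Armc6 (0.981 to 0.989), and the closest to Hes6 ILMN_2608043 were Pemt, Txndc1 and H13 (0.986 to 0.994). With 6 arrays such values are descriptions only.

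The rest of the pathway was read from a list of 57 further symbols, of which 53 were on the array and 42 had a tested probe. None of the 64 probes was called. At an unadjusted p under 0.05 there were 8 (12.5%, against 20.9% of all tested probes), 5 higher and 3 lower in hSRY-ON, and 16 (25%, against 27.7%) had groups that did not overlap. The median log2 fold change of the 64 probes was 0.06. The values named below are of probes that did not pass the threshold in the reported fit.

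Among the further receptors and ligands, 7 of 8 probes were higher in hSRY-ON, both probes of Notch4 among them, and the median was 0.18. Over all tested probes, 48.9% were lower in hSRY-ON. Notch4, a receptor of endothelium, read 0.28 ± 0.10 (SE) at one probe (limma adjusted p = 0.164) and 0.29 ± 0.15 (SE) at the other, with hSRY-ON above hSRY-OFF without overlap at both. Jag2, a Jagged ligand, was at 0.27 (limma adjusted p = 0.186), and Notch3, the receptor of vascular mural cells, at -0.19 with hSRY-ON below hSRY-OFF. Among the 11 probes for receptor processing, Aph1a, a subunit of gamma-secretase, was at 7.68 ± 0.03 in hSRY-OFF and 8.08 ± 0.15 in hSRY-ON (SD, n = 3), a difference of 0.40 (limma adjusted p = 0.0780), and was called in 4 alternatives. Adam17, a protease that sheds membrane proteins including Notch, was at -0.27 (limma adjusted p = 0.160). The 6 probes of glycosyltransferases of Notch (median -0.04) and the 18 probes for ligand endocytosis and receptor turnover (median -0.00472) held 0 at an unadjusted p under 0.05.

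Among the 14 probes of nuclear partners, Tle3, a co-repressor recruited by Hes proteins, was at 0.56 ± 0.16 (SE) at one probe (limma adjusted p = 0.119; called in 2 alternatives) and at 0.07 and 0.14 at its other 2 probes. Among further targets, Id1, an inhibitor of proneural factors that also responds to BMP, had the lowest adjusted p of the list. Its signal was 9.48 ± 0.19 in hSRY-OFF and 10.06 ± 0.09 in hSRY-ON (SD, n = 3). The difference was 0.58 ± 0.11 (SE, limma adjusted p = 0.0527), and it was called in 5 alternatives. Id3, on the same list, went the other way, at -0.21 with overlapping groups (limma adjusted p = 0.444). Nrarp, a target of Notch that dampens the signal, was at 10.89 ± 0.03 in hSRY-OFF and 10.60 ± 0.14 in hSRY-ON (SD, n = 3), a difference of -0.29 (limma adjusted p = 0.141), and was called in 2 alternatives. Fabp7, a lipid-binding protein of radial glia, was at -0.49 (limma adjusted p = 0.168) with overlapping groups. Hey2 was at -0.05 and 0.13 at its 2 probes and Sox9 at 0.01, while Hes2, Hes3, Hes7 and Heyl were below background on all 6 arrays. Of the proneural and neuronal differentiation genes that Hes repressors act on, 7 probes of 6 genes were tested and none was called. Insm1 was at -0.46 (limma adjusted p = 0.120; called in 3 alternatives), Neurod2 at 0.35 (limma adjusted p = 0.153) and Dcx at 0.19 and 0.14 at its 2 probes, both with hSRY-ON above hSRY-OFF (limma adjusted p = 0.277 and 0.336). The Neurog2 probe was detected on 3 hSRY-OFF arrays and 1 hSRY-ON array, so it passed the filter through the group where it is higher and is given no fold here.

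**Figure D4:**
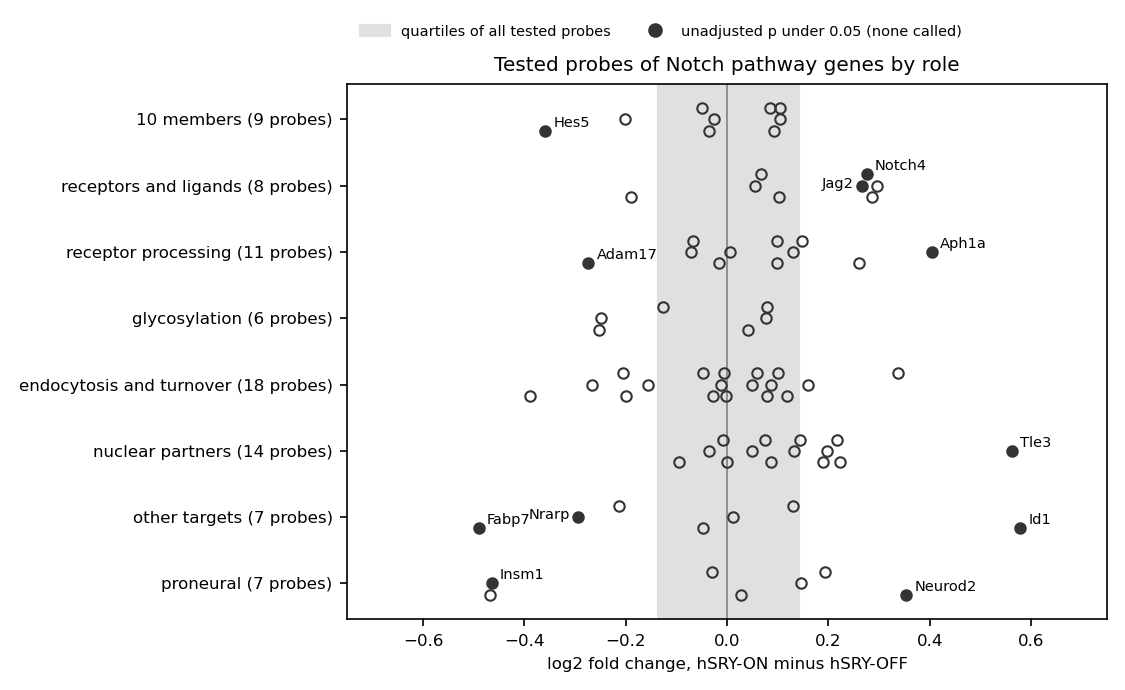
Log2 fold change (hSRY-ON minus hSRY-OFF) of each tested probe of the 10 genes and of the further pathway and proneural genes, in rows by role, with the quartiles of all tested probes (-0.14 and 0.14) in grey. Filled, named points had an unadjusted p under 0.05 and none was called, with Hes5 the only one among the 10 genes.

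Cell type markers were read on the same arrays because Hes1 and Hes5 are known from neural progenitors and glia. Over all tested probes, 2.17% were called and 48.9% were lower in hSRY-ON. The neuronal markers, which check the labelled tissue, were at a summed level (mean of the probes' log2 signals) of 11.45 to 11.56 in hSRY-OFF and 11.39 to 11.54 in hSRY-ON, and 0 of 6 probes were called. All 12 tested probes of the mitosis markers were lower in hSRY-ON, 8 of them called, with a median of -0.94 and levels of 8.62 to 8.81 against 7.52 to 8.11. The called probes were 3 of Cdc20 and 1 each of Plk1, Top2a, Birc5, Ccnb1 and Cdk1; Top2a, a topoisomerase of dividing cells, fell by 1.08 (limma adjusted p = 0.0327). Cell division is a theme that the study took from these same arrays, so the list is not independent evidence of its direction. Of the 9 astrocyte probes, 7 were lower in hSRY-ON, the median was -0.22, and 2 were called, both lower: Gfap, the intermediate filament of astrocytes, fell by 0.83 and Aqp4, their water channel, fell by 0.81 (limma adjusted p = 0.0308 and 0.0275). Aldh1l1 was at -0.48 (limma adjusted p = 0.0834) and -0.40 at its 2 probes, Slc1a2 at -0.22 and 0.03, Gdf10 at -0.11 and Gja1 at -0.04, while Aldoc was at 0.28 with hSRY-ON above hSRY-OFF (limma adjusted p = 0.105). Astrocyte levels were 10.10 to 10.17 against 9.77 to 9.91. The 5 radial glia probes held 0 called, with a median of -0.13 and levels of 9.87 to 9.90 against 9.58 to 9.81. Among them, Nes was at -0.35 and -0.30 at its 2 probes (limma adjusted p = 0.373 and 0.379). Vim was at -0.13, Sox2 at 0.01 and Slc1a3 at 0.03, and Pax6, Prom1 and Hopx were below background. Granule cell precursor probes (0 of 7 called) had a median of -0.42, but the 4 lower probes were of the cyclins Ccnd1 and Ccnd2, which many dividing cells express, and the lineage factors Barhl1, Zic1 and Zic2 were at 0.09, 0.16 and 0.01. Oligodendrocyte precursor probes (1 of 5 called, Gpr17, which fell by 0.73) had a median of -0.27 and levels of 10.03 to 10.08 against 9.78 to 9.84, with Pdgfra, another precursor marker, at 0.19 and hSRY-ON above hSRY-OFF (limma adjusted p = 0.254) and Cspg4 at -0.07. The myelin probes (2 of 12 called, both of Mobp and lower) had a median of -0.57 and levels of 10.05 to 10.56 against 9.57 to 9.66. Among the endothelial probes (0 of 11 called), Tek was at -0.53 and Flt1 the other way at 0.49. Mural cell probes (0 of 8) had a median of 0.03. For the remaining lists, with 0 called in each, the medians were 0.16 for microglia (8 probes), -0.47 for meninges (4) and -0.07 for the single ependymal probe. No median is given for choroid plexus (6 probes), erythroid cells (3) and endothelium (11). Each of these lists held a probe that passed the filter through the hSRY-ON arrays. Kl of choroid plexus was detected on 0 hSRY-OFF and 3 hSRY-ON arrays. Hbb-b1 of erythroid cells and an Egfl7 probe of endothelium were detected on 1 and 3. The mitosis, astrocyte, radial glia, oligodendrocyte precursor, myelin and meningeal lists had lower levels in all 3 hSRY-ON arrays than in any hSRY-OFF array. Meningeal levels were 9.26 to 9.36 against 8.36 to 9.10. Microglial levels were higher in all 3 (8.003 to 8.10 against 8.21 to 8.23). Of all tested single probes, 27.7% had groups that did not overlap, in either direction. Hes5 ILMN_1253414 was lower without overlap, while the groups of the other Hes5 probe, ILMN_2624153, overlapped. The part of these cell types in the Hes5 values was not tested.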

How the data were processed

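Biotinylated cRNA from whole-brain total RNA of 6 mice (3 hSRY-OFF, 3 hSRY-ON) was hybridized to Illumina MouseRef-8 v2.0 arrays. Groups and replicate numbers were taken from the sample titles. The authors deposited a linear mean bead signal intensity for each of 25697 probes on each array. Beside it the deposited table gives a detection p-value, the share of negative controls (798 per array by its steps) at least as bright as the probe. No background correction was stated, and chip or hybridization batches were not given in the sources used here. The study names the package TCC without settings, and the submitters' processing notes name limma. TCC was not used.

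In R 4.3.3 with limma 3.58.1, intensities were corrected with normexp, its background inferred from the detection p-values (offset 16), put on the log2 scale and quantile normalized. The subtraction makes dim probes more variable. A probe was tested if it was detected (p under 0.05) on 3 or more of the 6 arrays, with lmFit and eBayes (two-sided, group as the only term), Benjamini-Hochberg adjustment across the tested probes and adjusted p under 0.05 for a call. A positive log2 fold change is higher in hSRY-ON, and 95% intervals are from the moderated fit. The precision is limited by 3 arrays per group. The p-values measure only the spread between these samples. Median signals were 200 to 220 per array, 13816 to 14377 probes were detected, and arrays correlated at 0.986 to 0.994.

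The 10 genes and the gene lists were chosen with earlier results of these data known. All 10 were named with every probe. From the other lists the called genes were named or, for some of the lists without a call, those with the lowest adjusted p. Further genes of these lists (such as Id3, Sox9, Hey2, Sox2, Slc1a3, Aldoc, Pdgfra and the granule cell markers) were named after their values were seen. Likeness was taken for the 3 genes with the lowest adjusted p, with 3 probes each. The fit was tested on simulated data. Alternatives covered background correction, normalization, filter, prior, array weights, the replicate number as a block, 1 probe per symbol and leaving out each array. Promoter windows came from RefSeq GRCm38.p6. Plots and promoter searches used Python 3.11.15 with matplotlib 3.10.9.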

Additional observations from a re-analysis of the deposited data

How the results depend on the processing

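The count of called probes over the array depended on the processing. Among the 9 Notch pathway probes it was 0 or 1, depending on the setting. In place of 308 calls (120 higher, 188 lower), there were 1317 without background correction, 860 with normexp fitted on the signals (offset 50), 123 without the filter (25697 probes tested), 705 with detection at 0.01 on all arrays (11619 tested), 1447 with a trended and robust prior and 480 with array weights. Leaving out 1 array gave 0 to 417 calls in limma, with 2236 to 3150 probes at an unadjusted p under 0.05. No more than 1 call was left without any of hSRY-OFF arrays 1, 2 and 3 or hSRY-ON arrays 1 and 2, and 417 without hSRY-ON array 3. The higher and lower calls were 574 and 743 without background correction, 109 and 223 with median scaling and 133 and 205 with cyclic loess. Of the 9 probes tested, 1 (Hes5 ILMN_1253414) was called without background correction and 1 with the trended and robust prior, and 0 in every other alternative, where 0 to 2 of the 9 had an unadjusted p under 0.05. Signs turned 4 times, each time with 1 array left out (without hSRY-ON array 1 for Notch1, Hes1 and Hes6 ILMN_2791952, and without hSRY-OFF array 2 for Hes1). With each array left out in turn the log2 fold change ran from -0.0873 to 0.283 for Notch1, from -0.129 to 0.0745 for Hes1 and from -0.162 to 0.0546 for Hes6 ILMN_2791952. The replicate numbers were not taken as pairs, since deviations of same-numbered arrays correlated at only 0.0251 to 0.0404, although each array correlated best with its own number. With the replicate number as a block, 0 probes were called by limma over the array (2906 at an unadjusted p under 0.05), and the 2 Hes5 probes had adjusted p of 0.261 and 0.335. The causes were not tested. Probes below background (Notch2, Dll3, Jag1 and Rbpj) carry no information on direction.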
